A study of Rattus norvegicus with 6 samples.

Results

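MYC and 34 genes of ribosome biogenesis were followed in rat articular cartilage cells kept at rest or under flow. The members are the 35 genes on a list of symbols (Myc and factors that make, modify or assemble ribosomes), each found by an exact match of its symbol among the 32161 genes of the count table. All 35 had enough counts to be among the 13945 genes tested. The cells were primary Rattus norvegicus cells from the superficial layer of joint cartilage, next to the joint space. They were kept at 0 dyne/cm² (static, 3 libraries) or at 20 dyne/cm² of fluid shear stress, the drag of flowing fluid on the cell surface (shear, 3 libraries). No genotype or other agent is given for either group, and the age and strain of the animals, the hours of flow and the number of animals behind a library were not stated in the sources. If the 3 libraries of a group share a culture, the p-values measure technical spread only. In these bulk libraries, fewer cells with a transcript and less transcript per cell cannot be told apart.

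MYC is a transcription factor that pairs with MAX, binds the sequence CACGTG (the E-box) and raises the transcription of many genes for growth, among them those for ribosome production. Ribosomes are built in the nucleolus: RNA polymerase I transcribes the ribosomal RNA precursor, small nucleolar ribonucleoproteins (snoRNPs) modify it, and assembly factors fold, cut and package it into a small and a large subunit. All values below concern the messenger RNAs of these factors, not the rRNA.

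Library totals ran from 33342775 to 33979479 counts. As to the labelled cell type, the superficial zone marker Prg4 (lubricin) had 18.8 CPM in static libraries and the cartilage collagen gene Col2a1 0.213 CPM, while the fibroblast collagen gene Col1a1 had 6101 CPM (CPM, counts scaled to library size with TMM factors). The 10 superficial zone and chondrocyte markers summed to between 62.3 and 64.7 CPM in static and between 78.9 and 80.6 CPM in shear libraries. Of 7 tested, 3 rose (42.9%) and 1 fell (14.3%), beside 10.8% and 7.71% of all genes tested. Their median log2 fold change (shear over static) was -0.22, with a range of -0.51 to 1.26, so the sum does not stand for each marker. The call of Prg4 ended in 4 of the 14 alternatives. These were library totals, without static replicate 1 or 3, and without shear replicate 3 (edgeR adjusted p = 0.062, 0.0549, 0.096 and 0.071). The 7 skeletal muscle markers, of which 4 of 6 tested fell and 0 rose, summed to between 60.3 and 63.5 CPM in static and between 34.8 and 38.3 CPM in shear libraries, with Myog at 0 under shear. The 4 endothelial markers summed to between 9.79 and 11.8 CPM in static and between 5.24 and 9.22 CPM in shear libraries, and Kdr fell (1 of 3 tested). The 5 macrophage and blood markers, with Ptprc and Adgre1 at 0 under shear, stayed under 10 CPM in sum in every library. The 5 fibroblast markers summed to between 11605 and 12204 CPM in static and between 12391 and 13379 CPM in shear libraries, with Dcn higher and Pdgfra lower. The call of Dcn ended with library totals alone and without static replicate 1 or shear replicate 2 (edgeR adjusted p = 0.063, 0.057 and 0.056). That of Pdgfra ended without static replicate 1 or 3 (0.11 and 0.068, adjusted p by edgeR) or shear replicate 2 or 3 (0.082 and 0.0509). The part of these shifts in the results on the 35 genes was not tested.

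Myc rose by 71.4% under shear, and 11 of the 34 ribosome biogenesis genes rose by 12.6% to 35.2%. In all, 12 of the 35 genes were higher under shear, 0 were lower and 23 did not pass (edgeR quasi-likelihood test, adjusted p under 0.05 over all genes tested). Over all genes tested, 10.8% were higher (1508) and 7.71% lower (1075) by the same rule; upper-quartile factors gave 1275 and 1364, and library totals alone 1124 and 1730. At an unadjusted p under 0.05, 16 members were higher and 1 lower, beside 15.7% and 13.7% of all genes tested, and DESeq2 and limma-voom each called 13 higher and 0 lower. The median log2 fold change of the 35 genes, shear over static, was 0.095, beside -0.012 over all genes tested. The 11 biogenesis genes that rose had a median log2 fold change of 0.21, beside a median absolute log2 fold change of 0.33 over all genes called. The scaling had a part in this balance: there were 11 higher members and 1 lower with upper-quartile factors, and 8 and 1 with library totals alone, the lower one being Nhp2.

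The libraries of the groups did not overlap in 15 members that lay higher under shear (16.7% of all genes tested) and in 2 that lay lower (15.9% of all genes tested), Nhp2 and Rrp1. Among the 12 genes that rose, Tsr1 alone had overlapping groups. The median log2 ratio of the 35 genes to their static means was 0.0821, 0.127 and 0.114 in shear libraries 1, 2 and 3, against 0.0106, -0.00866 and -0.00114 in the static libraries. Every shear library thus lay above every static one in this median. The static values lie near 0 by construction, since the ratios are taken to the static means. Over all genes tested the median was -0.00053, -0.0048 and -0.0072 in shear libraries 1, 2 and 3.

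**Figure D1:**
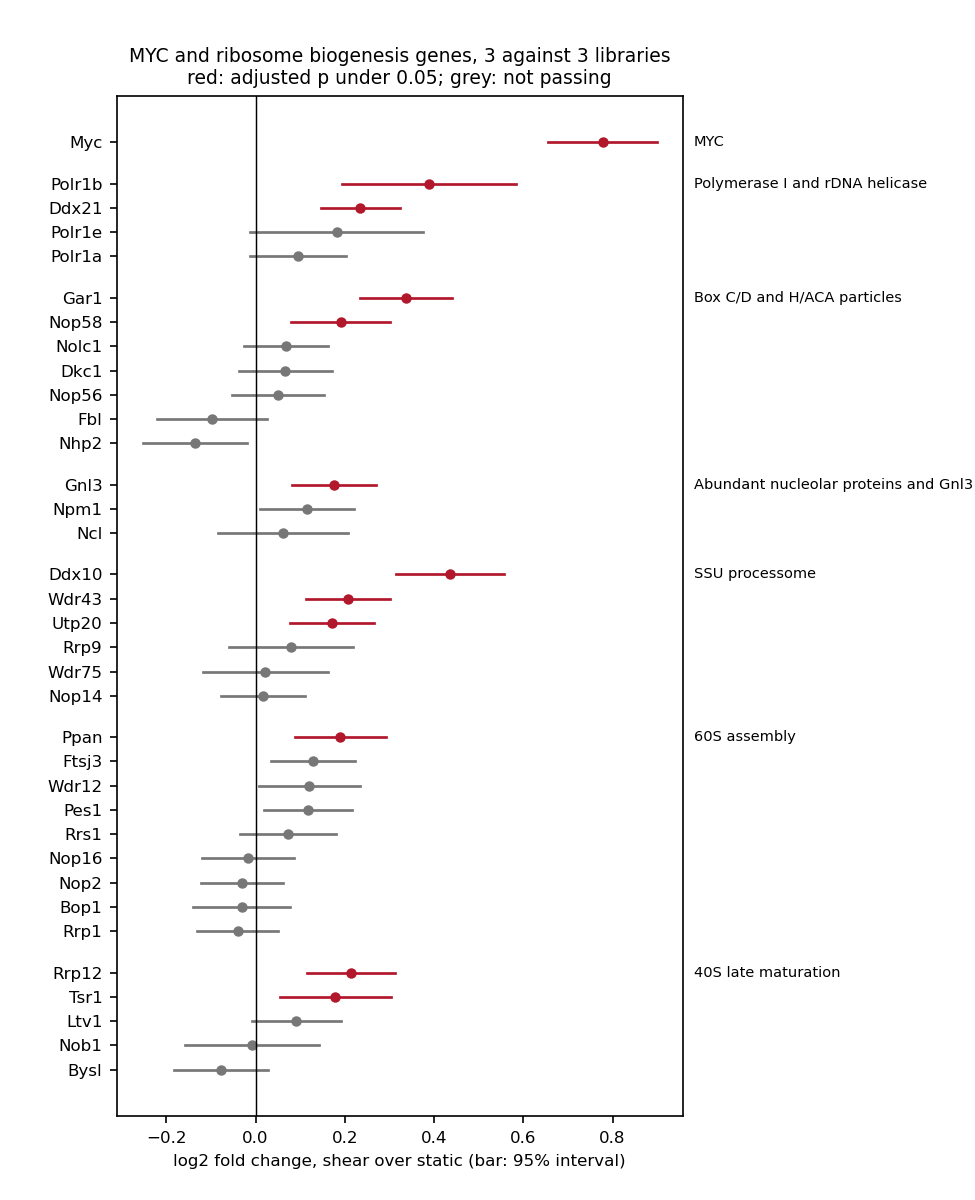
Log2 fold change (shear over static, horizontal axis) of the 35 genes by role, with 95% intervals from the edgeR fit over 3 static and 3 shear libraries; red marks adjusted p under 0.05. Myc stands farthest to the right at 0.78, followed by Ddx10 (0.43), Polr1b (0.39) and Gar1 (0.34), and Nhp2 is the lowest at -0.14.

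Myc itself (chromosome 7, 102586313 to 102591240, in the table's own coordinates, whose build was not stated) stood at 39.2, 36.5 and 38.6 CPM in static libraries 1, 2 and 3 and at 65.5, 61.2 and 69.3 CPM in shear libraries 1, 2 and 3. All shear libraries lay well above all static ones. The group means were 38.1 ± 1.46 and 65.3 ± 4.05 CPM (SD, n = 3 each), a rise of 71.4% and a log2 fold change of 0.78 ± 0.06 (SE, adjusted p = 3.4e-10 by edgeR). Its fold change ranged from 0.73 to 0.82 over the 14 alternative settings, with the call kept in each. Per kilobase of exon, Myc at 14.2 CPM per kb in static libraries was far less abundant than most of the factors described below, whose median, Myc included, was 79.0 CPM per kb.

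The other MYC genes and the partners of MYC did not follow one direction. Of 19 tested genes for MYC relatives, partners, antagonists and cofactors, 4 rose, 4 fell and 11 did not pass, with a median log2 fold change of -0.093. Each share was 21.1%, beside 10.8% higher and 7.71% lower over all genes tested. Mxd1, which encodes a MAX-binding antagonist of MYC, fell from 30.7 ± 1.46 to 21.0 ± 2.34 CPM (n = 3 each, SD), or a log2 ratio of -0.55 ± 0.08 (SE, adjusted p = 6.1e-06 by edgeR). Mxd4, of the same antagonist family, fell too (-0.18), though its call ended without static replicate 2 or 3 (edgeR adjusted p = 0.068 and 0.13) and without shear replicate 2 or 3 (0.0528 and 0.19). Max, the obligate partner, had a log2 fold change of -0.10 ± 0.07 (SE, adjusted p = 0.38 by edgeR). The antagonist genes Mnt and Mxi1 had log2 fold changes of -0.09 and -0.02 and did not pass (edgeR adjusted p = 0.3 and 0.85). Mycn and Mycl were scarce, at 1.32 and 0.406 CPM in static libraries, and their log2 fold changes of -0.71 and -0.33 did not pass. Without static replicate 3, Mycn stood at a log2 ratio of -0.99 (edgeR adjusted p = 0.03).

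Fbxw7, the ubiquitin ligase subunit that marks MYC protein for degradation, rose from 26.1 ± 0.559 to 37.5 ± 2.36 CPM (n = 3 each, SD), or a log2 ratio of 0.52 ± 0.06 (SE, adjusted p = 1.1e-06 by edgeR). Mlxip, a sugar-responsive relative within the MYC-MAX network, rose by 0.42, and Zbtb17, which encodes the MYC-binding repressor partner MIZ1, by 0.26. The others, named after their values were seen, were Mlx (0.17), which rose, and the chromatin cofactors Ruvbl1 (-0.16) and Trrap (-0.16), which fell. The number of genes that fell in this list went down to 1 without static replicate 2 or shear replicate 2, and to 2 without static replicate 1 or shear replicate 3.

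Among the genes whose level followed Myc most closely across the 6 libraries, out of the 10762 genes whose mean log2 CPM was 1 or more, were Odc1 (Pearson r = 0.9984), Ccp110 (0.9981), Smarcd1 (0.9972) and Rhob (0.9971). The 6 libraries fall into 2 groups, so this likeness is mostly that of the shear against static difference and is given as a description. Odc1, which encodes the first enzyme of polyamine synthesis and is a classic MYC target, went from 143 to 186 CPM (log2 fold change 0.38).

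**Figure D2:**
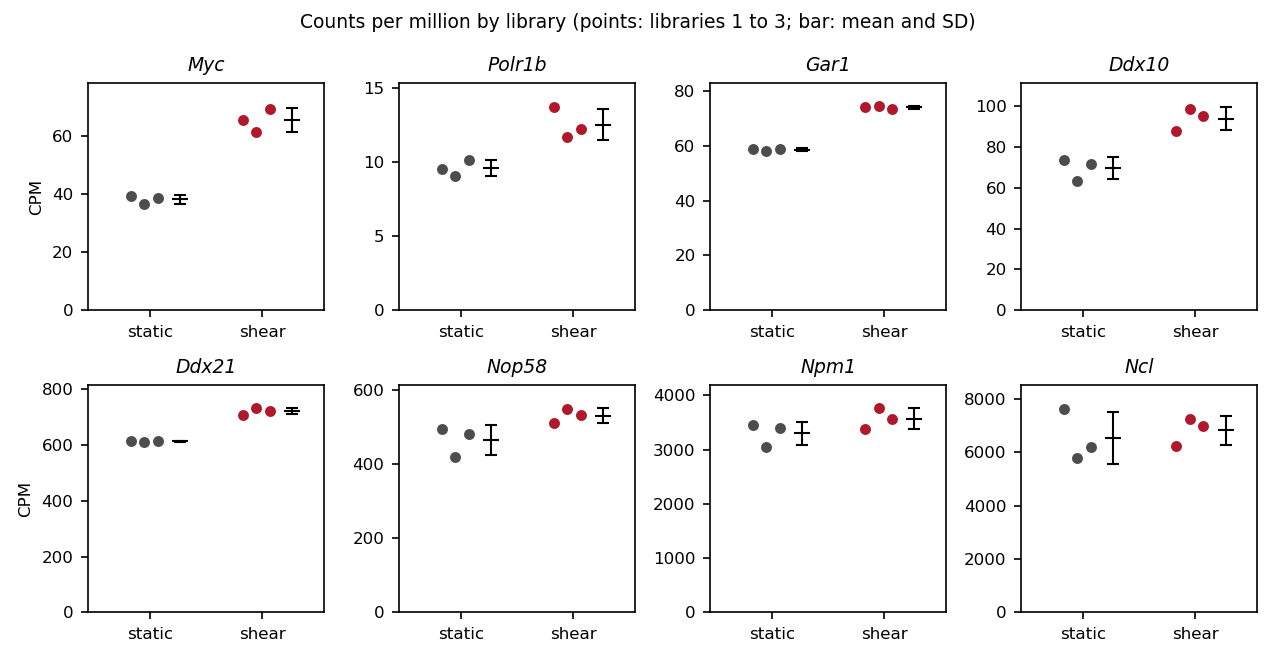
CPM (vertical axis, from 0) of 8 genes in each library, with static in grey, shear in red, and the mean and SD of 3 libraries beside the points. Myc, Polr1b, Gar1, Ddx10, Ddx21 and Nop58 are higher in every shear library than in any static one, while the points of Npm1 and Ncl overlap.

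Of the 4 member genes for transcription of the rRNA precursor, 2 rose (50%, beside 10.8% of all genes tested). RNA polymerase I is represented by Polr1a and Polr1b, its large catalytic subunits, and Polr1e, a subunit that works in initiation and elongation. Polr1b stood at 9.50, 9.07 and 10.1 CPM in static libraries 1, 2 and 3 and at 13.7, 11.7 and 12.2 CPM in shear libraries 1, 2 and 3. All 3 shear libraries lay above the static ones, with shear replicate 1 the highest. Its group means were 9.57 ± 0.539 and 12.5 ± 1.05 CPM (n = 3 each, SD), or a log2 ratio of 0.39 ± 0.09 (SE, adjusted p = 0.0043 by edgeR). Polr1e went from 10.5 ± 0.716 to 11.9 ± 0.875 CPM (SD, n = 3 each) with overlapping groups, a log2 fold change of 0.18 ± 0.09 (SE, adjusted p = 0.2 by edgeR). Polr1a had groups that did not overlap but a small difference, a log2 fold change of 0.10 ± 0.05 (SE, adjusted p = 0.24 by edgeR) with a 95% interval of -0.01 to 0.20. These 3 were among the scarcer members, at 2.54 (Polr1b), 3.58 (Polr1e) and 9.54 (Polr1a) CPM per kb in static libraries.

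Ddx21, an RNA helicase of the nucleolus that occupies ribosomal DNA and promotes its transcription and processing, stood at 616, 611 and 614 CPM in static libraries 1, 2 and 3 and at 709, 734 and 724 CPM in shear libraries 1, 2 and 3. The static libraries were within 1% of one another (the lowest percent SD of the 35 genes, 0.430%), and the shear libraries lay clear above them. The group means were 614 ± 2.64 and 722 ± 12.3 CPM (n = 3 each, SD), or a log2 ratio of 0.23 ± 0.04 (SE, adjusted p = 2.4e-04 by edgeR).

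The other genes of this machinery moved the same way where they passed. Of 19 further genes of RNA polymerase I and its factors, all tested, 8 rose, 0 fell and 11 did not pass (edgeR), with a median log2 fold change of 0.078. The shares that rose and fell were 42.1% and 0%, beside 10.8% and 7.71% of all genes tested. At an unadjusted p under 0.05, 8 were higher and 1 lower, and DESeq2 and limma-voom both gave 8 and 0, while library totals alone gave 8 and 1. Taf1a, Taf1b, Taf1c and Taf1d, which encode the TAF subunits of the factor that recruits the polymerase to the ribosomal DNA promoter, all rose: by 0.40, 0.38, 0.43 and 0.24 on the log2 scale, from 22.4, 8.18, 7.20 and 362 CPM. The call of Taf1c ended without shear replicate 2 (edgeR adjusted p = 0.0504). Polr1c, a subunit shared with RNA polymerase III, rose from 11.5 ± 0.368 to 15.2 ± 1.44 CPM (n = 3 each, SD), or a log2 ratio of 0.40 ± 0.09 (SE, adjusted p = 0.002 by edgeR). Twistnb and Cd3eap, the older symbols of the subunit genes Polr1f and Polr1g, rose by 0.24 and 0.18. The largest rise in this list was that of Top1, the DNA topoisomerase that relieves strain ahead of polymerases in general, at 0.58 ± 0.05 (SE, adjusted p = 4.3e-09 by edgeR) on the log2 scale. Taf1b, Taf1d, Twistnb and Cd3eap were named after their values were seen. Over the 8 subunit genes Polr1a to Polr1h, members included, 4 rose (50%) and 0 fell. The Polr2 genes in this list did not pass: Polr2e, Polr2f, Polr2h, Polr2k and Polr2l had log2 fold changes of -0.10, -0.17, 0.28, 0.04 and -0.03. Polr2h and Polr2l were scarce, at 1.43 and 1.19 CPM in static libraries.

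The snoRNPs that guide rRNA modification changed in 2 of 7 member genes, both higher (28.6%, beside 10.8% of all genes tested). Box C/D particles carry out methylation with fibrillarin (Fbl) on a core of Nop56 and Nop58, and box H/ACA particles make pseudouridine with dyskerin (Dkc1), Nhp2 and Gar1. Gar1 stood at 59.1, 58.0 and 59.1 CPM in static libraries 1, 2 and 3 and at 74.3, 74.6 and 73.6 CPM in shear libraries 1, 2 and 3. The spread within each group was under 2 CPM, far less than the gap between the groups. The group means were 58.7 ± 0.612 and 74.2 ± 0.496 CPM (n = 3 each, SD), or a log2 ratio of 0.34 ± 0.05 (SE, adjusted p = 2.0e-05 by edgeR). Its partners Dkc1 and Nhp2 in the same particle did not pass the test. Dkc1, the pseudouridine synthase, had a log2 fold change of 0.07 ± 0.05 (SE, adjusted p = 0.42 by edgeR), and Nhp2 went from 58.7 ± 2.68 to 53.4 ± 2.66 CPM (n = 3 each, SD), or a log2 ratio of -0.14 ± 0.06 (SE, adjusted p = 0.1 by edgeR). Nhp2 was lower in every shear library than in any static one and was called lower with upper-quartile factors (edgeR adjusted p = 0.0462) and with library totals alone (0.02).

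In the box C/D core, Nop58 stood at 496, 418 and 482 CPM in static libraries 1, 2 and 3 and at 510.0, 549.9 and 532 CPM in shear libraries 1, 2 and 3. Static replicate 2 was the lowest, and the groups came within a few percent of each other. The log2 fold change was 0.19 ± 0.05 (SE, adjusted p = 0.014 by edgeR), and the call ended without static replicate 2 (edgeR adjusted p = 0.14), shear replicate 2 (0.08) or shear replicate 3 (0.0544). Nop56, its paralogue in the same particle, had a log2 fold change of 0.05 ± 0.05 (SE, adjusted p = 0.56 by edgeR), with a 95% interval of -0.05 to 0.15. Fbl had one of -0.10 ± 0.06 (SE, adjusted p = 0.3 by edgeR). In the annotation used, 23.0% of the exon bases of Fbl are shared with Dyrk1b on the same strand, so reads there cannot be assigned to one gene with certainty. Nolc1, a phosphoprotein that escorts snoRNPs within the nucleus, had one of 0.07 ± 0.05 (SE, adjusted p = 0.35 by edgeR). Of 18 further genes of snoRNP assembly and rRNA modification, 0 rose, 1 fell and 17 did not pass (edgeR; 4 higher and 1 lower at an unadjusted p under 0.05, and 0 and 1 with DESeq2 and with limma-voom). The median log2 fold change of these 18 genes was 0.074, and 13 of them lay above 0, beside 47.4% of all genes tested. The shares that rose and fell were 0% and 5.56%, beside 10.8% and 7.71% of all genes tested. Without static replicate 1 or shear replicate 1, 2 of them rose. The one that fell was Znhit6, a box C/D assembly factor, with -0.28 ± 0.06 (SE, adjusted p = 0.0013 by edgeR) on the log2 scale.

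Ncl and Npm1 carried most of the transcript of the 35 genes without a change that passed. Nucleolin (Ncl) binds rRNA precursors and ribosomal DNA, and nucleophosmin (Npm1) forms the outer, granular zone of the nucleolus and chaperones assembling subunits. Ncl was the fourth most counted gene of the whole table and took 43.3% of the members' CPM in static replicate 1, the library where its share was highest. It stood at 7636, 5773 and 6197 CPM in static libraries 1, 2 and 3 and at 6232, 7260.1 and 6979 CPM in shear libraries 1, 2 and 3. Static replicate 1 was the highest of all 6 libraries, above each shear library, and the groups overlapped. The log2 fold change was 0.06 ± 0.07 (SE, adjusted p = 0.62 by edgeR), with a 95% interval of -0.08 to 0.21. Without static replicate 1 it was 0.19 and passed (edgeR adjusted p = 0.022), so the value rests on that library.

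Npm1 stood at 3451, 3049 and 3397 CPM in static libraries 1, 2 and 3 and at 3378, 3771 and 3570.5 CPM in shear libraries 1, 2 and 3. Static replicate 2 was the lowest and the groups overlapped by a narrow margin. The log2 fold change was 0.11 ± 0.05 (SE, adjusted p = 0.13 by edgeR), and it passed without shear replicate 1 (edgeR adjusted p = 0.044) and without the low-count filter (0.027). Npm1 has processed copies in mammalian genomes, and its level is uncertain because the treatment of multiply matching reads was not stated. Gnl3 (nucleostemin), a nucleolar GTPase of proliferating cells, stood at 335, 320.1 and 344 CPM in static libraries 1, 2 and 3 and at 369.9, 387 and 371 CPM in shear libraries 1, 2 and 3. Every shear library was above every static one, and the log2 fold change was 0.17 ± 0.05 (SE, adjusted p = 0.0076 by edgeR). Its call ended without static replicate 2 (edgeR adjusted p = 0.057) and with library totals alone (0.0531).

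Summed over the 35 genes, the level was 17649, 15149.7 and 16062 CPM in static and 16550.5, 18122 and 17644 CPM in shear libraries. The groups overlapped in this sum since static replicate 1, where Ncl was high, exceeded shear replicates 1 and 3. Over the 33 genes other than Ncl and Npm1 the sum was 6452 ± 118 CPM in static and 7042 ± 87.7 CPM in shear libraries (SD, n = 3 each), with the groups apart.

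**Figure D3:**
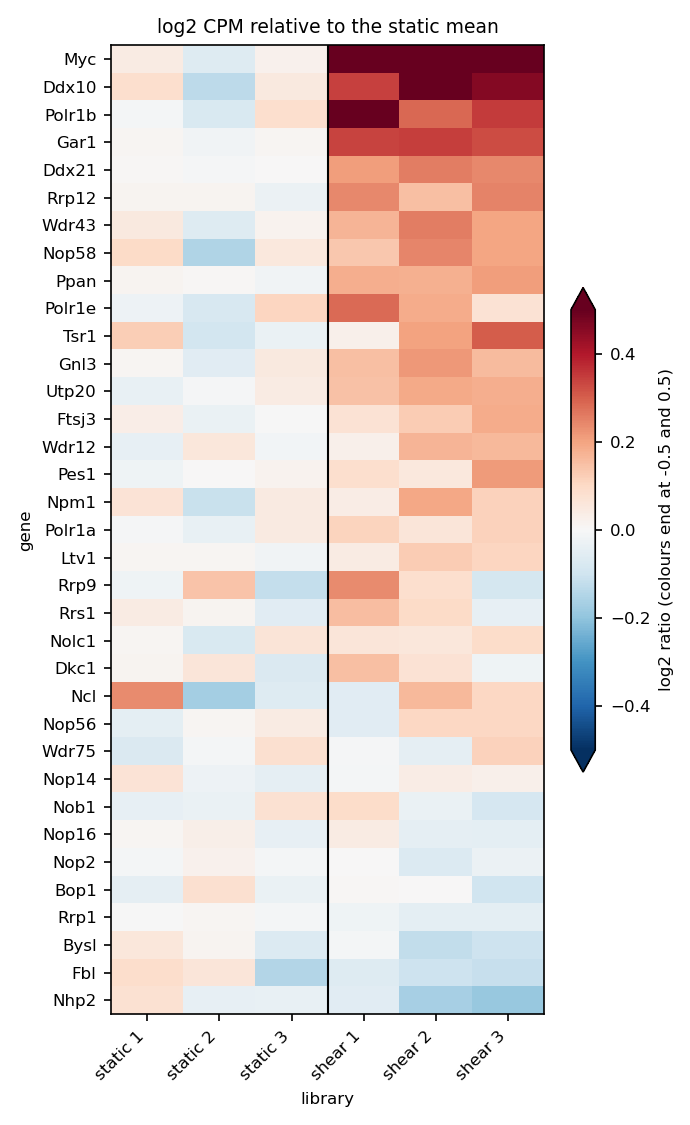
Log2 CPM of each of the 35 genes (rows, ordered by fold change) in each library (columns), relative to the mean of its 3 static libraries; red is higher and blue lower, and colours end at -0.5 and 0.5. The upper rows are red in all shear libraries, Ncl is reddest in static replicate 1, and Nhp2, Fbl and Bysl at the foot have the lowest fold changes.

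Factors of the small subunit processome, the large particle that forms on the nascent rRNA precursor, rose in 3 of 6 member genes. That is a share of 50%, beside 10.8% of all genes tested. Ddx10, an RNA helicase whose yeast relative Dbp4 acts in this particle, stood at 73.5, 63.5 and 71.7 CPM in static libraries 1, 2 and 3 and at 88.0, 98.8 and 95.4 CPM in shear libraries 1, 2 and 3. Its lowest shear library was above its highest static one by 14 CPM or more. The group means were 69.6 ± 5.35 and 94.1 ± 5.49 CPM (n = 3 each, SD), or a log2 ratio of 0.43 ± 0.06 (SE, adjusted p = 4.9e-06 by edgeR), the largest after Myc. Wdr43 and Utp20, structural components of the particle, rose from 497 to 574 CPM and from 198 to 223 CPM, log2 fold changes of 0.21 and 0.17 (edgeR adjusted p = 0.0019 and 0.0081). Both had groups that did not overlap, and the call of Utp20 ended with library totals alone (edgeR adjusted p = 0.065).

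Rrp9, which binds the U3 snoRNA of the processome, varied most between shear libraries, at 156, 175 and 146 CPM in static libraries 1, 2 and 3 and at 186, 168 and 149 CPM in shear libraries 1, 2 and 3. Shear replicate 3 was below static replicates 1 and 2, so the groups overlapped, and the log2 fold change was 0.08 ± 0.07 (SE, adjusted p = 0.47 by edgeR). Nop14 and Wdr75 had log2 fold changes of 0.02 and 0.02, with 95% intervals of -0.08 to 0.11 and -0.12 to 0.16. Of 42 further processome factors, all tested, 9 rose, 0 fell and 33 did not pass (edgeR; 14 higher and 2 lower at an unadjusted p under 0.05, and 9 and 0 with DESeq2 and with limma-voom), with a median log2 fold change of 0.072. The shares that rose and fell were 21.4% and 0%, beside 10.8% and 7.71% of all genes tested. Upper-quartile factors gave 9 higher and 2 lower, and library totals alone 7 and 2. The steepest were Nol10, from 102 ± 3.98 to 157 ± 5.58 CPM (n = 3 each, SD), or a log2 ratio of 0.62 ± 0.05 (SE, adjusted p = 7.2e-10 by edgeR), and Utp23, at a low 4.93 CPM in static libraries (0.62). Heatr1, a large scaffold also needed for polymerase I transcription, rose from 63.5 ± 2.00 to 92.3 ± 0.0616 CPM (n = 3 each, SD), or a log2 ratio of 0.54 ± 0.05 (SE, adjusted p = 1.2e-08 by edgeR). Diexf, the older symbol of Utp25, rose by 0.30.

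Of the 9 member genes for assembly of the large subunit 1 rose (11.1%), about the share of all genes tested. Ppan, a relative of the yeast assembly factor Ssf1, stood at 68.8, 68.5 and 67.3 CPM in static libraries 1, 2 and 3 and at 77.3, 77.2 and 78.9 CPM in shear libraries 1, 2 and 3. The spread within each group was small, and the groups were apart. The log2 fold change was 0.19 ± 0.05 (SE, adjusted p = 0.0074 by edgeR), and the call ended with library totals alone (edgeR adjusted p = 0.0533). Ftsj3, an rRNA methyltransferase relative, fell just short of the threshold at 0.13 ± 0.05 (SE, adjusted p = 0.0514 by edgeR), with groups that did not overlap, and passed with DESeq2 and with limma-voom (adjusted p = 0.028 and 0.042). Pes1, Bop1 and Wdr12 encode the PeBoW complex, which acts in processing of the large-subunit rRNA. Their log2 fold changes were 0.12 ± 0.05 (SE, adjusted p = 0.097 by edgeR), -0.03 ± 0.05 (SE, adjusted p = 0.75 by edgeR) and 0.12 ± 0.05 (SE, adjusted p = 0.14 by edgeR), so none of the 3 passed; Wdr12 did without shear replicate 1 (edgeR adjusted p = 0.037).

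The rRNA methyltransferase gene Nop2 and the assembly factor genes Nop16, Rrp1 and Rrs1 had log2 fold changes of -0.03, -0.02, -0.04 and 0.07. Rrp1 was lower in each shear library than in any static one, yet by only a few CPM, 208 ± 1.36 against 202 ± 2.14 (SD, n = 3 each). Of 51 further large-subunit factors, all tested, 16 rose, 1 fell and 34 did not pass, with a median log2 fold change of 0.071. The shares that rose and fell were 31.4% and 1.96%, beside 10.8% and 7.71% of all genes tested. The counts were 12 higher and 2 lower with upper-quartile factors and 10 and 3 with library totals alone, and 10 rose without shear replicate 2. The steepest were Gtpbp4, a GTPase of the early particle, from 186 ± 10.2 to 244 ± 4.17 CPM (n = 3 each, SD), or a log2 ratio of 0.39 ± 0.05 (SE, adjusted p = 1.3e-06 by edgeR), and the giant remodelling ATPase Mdn1 (0.36). Nol9, a kinase that acts on the cut spacer RNA, and the helicase Ddx54 followed (0.32 and 0.31). The one that fell, named after its value was seen, was Eif6 (-0.18), which keeps the large subunit from joining the small one too early; 0 genes of this list fell when any 1 library other than shear replicate 1 was left out.

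Late maturation and export of the small subunit changed in 2 of 5 member genes, both higher (40%, beside 10.8% of all genes tested). Rrp12, an export factor, stood at 118, 118 and 115 CPM in static libraries 1, 2 and 3 and at 139, 130.3 and 139 CPM in shear libraries 1, 2 and 3. All shear libraries were above all static ones, and the log2 fold change was 0.21 ± 0.05 (SE, adjusted p = 0.0019 by edgeR). Tsr1, a GTPase-like factor of the late particle, stood at 396, 342 and 356 CPM in static libraries 1, 2 and 3 and at 370.0, 418 and 449 CPM in shear libraries 1, 2 and 3. Static replicate 1 was above shear replicate 1, so the groups overlapped. The log2 fold change was 0.18 ± 0.06 (SE, adjusted p = 0.04 by edgeR); the call ended in 7 of the 14 alternatives, among them leaving out static replicate 2 (adjusted p = 0.17), static replicate 3 (0.12), shear replicate 2 (0.13) or shear replicate 3 (0.28). It also ended with the replicate block (edgeR adjusted p = 0.072). Of the exon bases of Tsr1, 23.9% overlap Srr on the opposite strand. Whether counting used strand was not stated, so reads of the pair may not be separable; Srr had a log2 fold change of 0.14 ± 0.06 (SE, adjusted p = 0.11 by edgeR).

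Ltv1, which must leave the particle before it matures, Bysl, which recruits export and maturation factors, and Nob1, the nuclease that makes the final cut of the small-subunit rRNA, had log2 fold changes of 0.09 ± 0.05 (SE, adjusted p = 0.22 by edgeR), -0.08 ± 0.05 (SE, adjusted p = 0.33 by edgeR) and -0.01 ± 0.07 (SE, adjusted p = 0.96 by edgeR). None of the 3 passed in any alternative. Of 11 further genes listed for this step, 3 rose, 2 fell and 6 did not pass, with a median log2 fold change of -0.017. The shares that rose and fell were 27.3% and 18.2%, beside 10.8% and 7.71% of all genes tested. The atypical kinase gene Riok3 rose from 279 ± 23.8 to 459 ± 31.7 CPM (n = 3 each, SD), or a log2 ratio of 0.72 ± 0.06 (SE, adjusted p = 1.0e-09 by edgeR), and its relative Riok1 by 0.40. Nol8, which was listed with this step and named after its value was seen, rose by 0.22. Xpo1, the exportin that carries both subunits and many other cargoes out of the nucleus, fell from 274 ± 9.80 to 211 ± 11.1 CPM (n = 3 each, SD), or a log2 ratio of -0.38 ± 0.05 (SE, adjusted p = 2.8e-06 by edgeR). Fam207a, the older symbol of Slx9, fell by a margin (-0.23, edgeR adjusted p = 0.0465) that did not hold with DESeq2, with limma-voom or with the replicate block (adjusted p = 0.071, 0.0508 and 0.065), nor without static replicate 2 or 3 (0.11 and 0.18) or shear replicate 2 or 3 (0.19 and 0.14). Of 15 nuclear exosome genes, which trim rRNA precursors, Dis3 rose (0.21), Exosc2 fell (-0.29) and 13 did not pass. Each share, 6.67%, is 1 gene, beside 10.8% higher and 7.71% lower over all genes tested. Library totals alone gave 1 higher and 2 lower exosome genes, and the call of Dis3 ended without static replicate 3 (edgeR adjusted p = 0.062), shear replicate 2 (0.09) or shear replicate 3 (0.065).

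Few ribosomal protein genes, whose products are the parts these factors assemble, passed the test. Of those tested, 1.33% rose and 0% fell, beside 10.8% and 7.71% of all genes tested. Among the 75 tested, 1 rose and 0 fell, with 74 not passing (edgeR; 3 higher and 7 lower at an unadjusted p under 0.05, and 2 higher and 0 lower with DESeq2 and with limma-voom), and their median log2 fold change was -0.028. This balance was sensitive to scaling, with 1 higher and 4 lower under upper-quartile factors and 0 higher and 14 lower with library totals alone. The one that rose was Rps20, at 0.17 ± 0.05 (SE, adjusted p = 0.013 by edgeR) on the log2 scale, and its call ended with library totals alone (adjusted p = 0.09), without static replicate 1 (0.0531) or 2 (0.058) and without shear replicate 3 (0.0547). The groups did not overlap in 11 of the 75 genes that lay lower under shear (15.9% of all genes tested). They did not overlap in 3 that lay higher (16.7% of all genes tested). A log2 fold change above 0 was found in 23 of the 75, beside 47.4% of all genes tested, and one below 0 in 52. Summed over the 75 genes, the level was 28364, 28553 and 28415 CPM in static and 28294, 27950.2 and 28642 CPM in shear libraries, and the groups overlapped. Single genes ranged from 5.38 CPM (Rpl30) to 1644 CPM (Rpl6) in static libraries. Ribosomal protein genes have many processed copies, and how reads matching several of them were counted was not stated, so their levels are uncertain.

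Among the 47 tested genes listed as MYC targets outside ribosome production, 6 rose (12.8%) and 2 fell (4.26%). These shares were near those of all genes tested, and the median log2 fold change was -0.0038. Upper-quartile factors gave 5 higher and 4 lower, and library totals alone 3 and 6. The list holds an exception to its name, Mrto4, which encodes a large-subunit assembly factor. Mrto4 did not pass (log2 fold change 0.05, edgeR adjusted p = 0.57). Hk2, the hexokinase gene, rose from 176 ± 4.80 to 304 ± 11.9 CPM (n = 3 each, SD), or a log2 ratio of 0.79 ± 0.05 (SE, adjusted p = 5.2e-12 by edgeR), and Odc1 from 143 ± 2.63 to 186 ± 4.37 CPM, at 0.38 ± 0.05 (SE, adjusted p = 9.2e-07 by edgeR) on the log2 scale. The amino acid transporter gene Slc7a5 rose by 0.20. Nap1l1, a histone chaperone gene, rose by 0.18, a call that DESeq2 did not make (adjusted p = 0.28) and that ended without static replicate 2 (edgeR adjusted p = 0.36), shear replicate 2 (0.2) or shear replicate 3 (0.12). It also ended with the replicate block (0.059, adjusted p by edgeR), upper-quartile factors (0.094) and library totals alone (0.11). Falls, named with values already seen, were found in 2 genes, the pyrimidine synthesis gene Cad (-0.17) and the chaperonin gene Hspe1 (-0.18); 0 fell without static replicate 1 or shear replicate 3, and 1 without static replicate 2 or shear replicate 2.

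**Figure D4:**
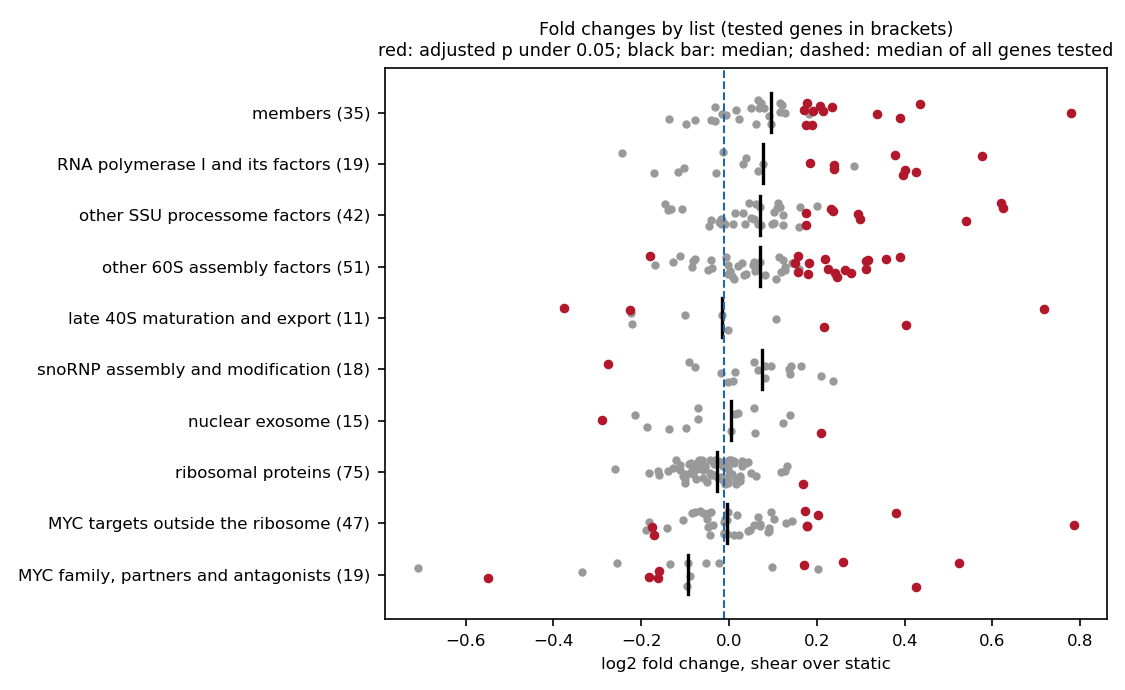
Log2 fold change (shear over static, horizontal axis) of each tested gene in the 35-gene list and in 9 further lists, with the number of tested genes in brackets; red points passed an adjusted p of 0.05, black bars are medians and the dashed line is the median of all genes tested (-0.012). Medians of the polymerase I, snoRNP, processome and large-subunit lists lie between 0.071 and 0.078, and that of ribosomal proteins at -0.028. Those of the late small-subunit, nuclear exosome, MYC target and MYC family lists lie at -0.017, 0.0050, -0.0038 and -0.093.

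Promoter windows were read to show which of these genes carry the E-box that MYC-MAX binds. RefSeq windows of 300 bases (250 before to 50 after the gene's start, build GRCr8) were found for 31 of the 35 genes; Myc, Rrs1, Wdr43 and Bop1 had none in the table. The motif CACGTG, which reads the same on both strands, was in 12 of 31 windows (38.7%), in 31 of 128 windows of the other biogenesis factors (24.2%), in 885 of 9463 windows of genes tested (9.35%) and in 6.42% of the 33465 windows of all genes. Among the 12 genes with the motif 4 rose and 8 did not pass (median log2 fold change 0.079), and among the 19 without it 6 rose and 13 did not pass (median 0.115). The difference between these shares was not tested, and a match is a description of the sequence, not evidence of binding.

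The 12 motif-bearing stretches are shown with up to 10 bases on either side, so that the flanks can be compared, with CACGTG in capitals and each written 5′ to 3′ on the gene's own strand. Of these genes Gnl3, Rrp12, Utp20 and Tsr1 rose.
Gnl3: ttccagttcgCACGTGgcgcccgaga
Rrp12: tgagaatacaCACGTGggttctgctg
Utp20: gcactagctaCACGTGagaaaaagca
Tsr1: ttactcggtgCACGTGggcagttaga
Pes1: ctaagcggggCACGTGcggtaggaag
Ltv1: cctgtctaccCACGTGtagagctgcc
Rrp1: gcgtgacgcaCACGTGtcgtcactcg
Bysl: gccggcttcaCACGTGtaaactttgt
Nop2: tccccaagtgCACGTGgagcgg
Fbl: cgcttttttcCACGTGtgaaagcctg
Dkc1: cgtcccggcgCACGTGcgggccccac
Wdr75: actctttctaCACGTGttttaatttg
The first base of the motif lies at -25 (Gnl3), 4 (Rrp12), -127 (Utp20), 21 (Tsr1), -50 (Pes1), -61 (Ltv1), -16 (Rrp1), 33 (Bysl), 39 (Nop2), 22 (Fbl), -184 (Dkc1) and -160 (Wdr75) relative to the start site, where 1 is the first transcribed base. In 9 of the 12 the motif begins between -61 and 39.

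Whole windows are given for 4 genes that rose, Gnl3 and Rrp12 with the motif (capitals) and Ddx10 and Gar1, with steeper rises, which lack it. The Gnl3 window is chr16:6219733-6220032 and that of Rrp12 chr1:250655269-250655568, both on the minus strand of GRCr8. The Ddx10 window is chr8:62539536-62539835 and that of Gar1 chr2:221056700-221056999, also on the minus strand.
Gnl3: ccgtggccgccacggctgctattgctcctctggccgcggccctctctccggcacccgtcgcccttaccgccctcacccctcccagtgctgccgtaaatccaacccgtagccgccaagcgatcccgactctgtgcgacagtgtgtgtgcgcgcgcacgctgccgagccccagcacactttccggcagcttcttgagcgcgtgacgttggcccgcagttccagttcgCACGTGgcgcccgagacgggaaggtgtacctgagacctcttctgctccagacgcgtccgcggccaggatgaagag
Rrp12: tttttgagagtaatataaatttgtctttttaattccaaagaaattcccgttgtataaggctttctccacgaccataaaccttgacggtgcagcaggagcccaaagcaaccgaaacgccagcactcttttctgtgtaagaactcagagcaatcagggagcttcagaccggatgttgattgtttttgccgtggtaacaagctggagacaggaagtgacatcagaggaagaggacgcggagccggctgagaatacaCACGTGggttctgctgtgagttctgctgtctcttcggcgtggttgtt
Ddx10: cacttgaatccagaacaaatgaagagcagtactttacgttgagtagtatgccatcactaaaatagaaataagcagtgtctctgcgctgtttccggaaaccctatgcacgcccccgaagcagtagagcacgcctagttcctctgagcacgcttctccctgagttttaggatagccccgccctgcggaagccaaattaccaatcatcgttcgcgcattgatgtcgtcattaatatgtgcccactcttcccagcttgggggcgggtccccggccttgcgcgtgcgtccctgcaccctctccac
Gar1: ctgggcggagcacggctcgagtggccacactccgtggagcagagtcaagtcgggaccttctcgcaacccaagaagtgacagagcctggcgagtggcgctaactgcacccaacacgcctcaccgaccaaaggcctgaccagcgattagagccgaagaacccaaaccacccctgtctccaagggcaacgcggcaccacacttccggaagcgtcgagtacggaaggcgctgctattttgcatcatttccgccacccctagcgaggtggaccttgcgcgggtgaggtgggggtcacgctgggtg
The absence of CACGTG from the last pair says only that these letters are not in these windows.

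Levels and spreads of the 35 genes differed widely. In static libraries the level ran from 2.54 CPM per kb (Polr1b) to 2531 CPM per kb (Ncl), and in shear libraries from 3.33 to 2643. Next to Ncl and Npm1 (2058 CPM per kb) in static libraries came Nop58 (232 ± 20.5 CPM per kb), Nolc1 (185 ± 8.87) and Gnl3 (172 ± 6.21; SD, n = 3 each). Nolc1 and Gnl3 were close in this order, and the scarcest, besides Polr1b, were Polr1e, Polr1a and Wdr75 (9.79 CPM per kb). The SD between libraries was 0.430% to 14.9% of the mean in static (median 4.07%) and 0.669% to 11.2% in shear libraries (median 4.04%). Ncl varied most in static libraries and Rrp9 in shear libraries. For the 23 genes that did not pass, the lowest bound of a 95% interval of the log2 fold change was -0.25 (Nhp2) and the highest 0.37 (Polr1e), while others were narrower, such as -0.12 to 0.06 for Nop2 and -0.13 to 0.05 for Rrp1.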

How the data were processed

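Per the labels' protocols, Trizol RNA of 3 static and 3 shear samples went into stranded RNA libraries. The authors deposited raw whole-number counts per gene with the exon positions and summed exon length, per the file headers; tools listed in the submitters' processing notes are edgeR 3.12.1, Subread 1.5.1, featureCounts and Trimmomatic 0.36. Build, annotation, aligner and strand setting were not stated. Between 71.4% and 72.2% of counts from 1 to 20 were even, so halved counts were also tried. Of counts over 200, between 51.1% and 52.3% were even. With halved counts 13 members were higher under shear and 0 lower, and 1535 genes were higher and 1067 lower over the genes tested in that run.

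Testing used edgeR 4.0.16 (R 4.3.3): filterByExpr (minimum count 10), TMM factors, two-sided quasi-likelihood test without covariates, Benjamini-Hochberg adjustment over 13945 genes, threshold 0.05. SEs were obtained by dividing the absolute log2 fold change by the root of F. CPM uses the TMM-scaled totals of tested genes. Alternatives were DESeq2 1.42.0, limma-voom (limma 3.58.1), other scalings, no filter, a replicate block and each library left out. The members and lists were chosen with earlier results of these data known. Named genes are all members, up to 4 changed genes per list (mean log2 CPM 1 or more), partners of MYC, and the 5 genes most like Myc, of which 1 is not reported here. Of the lists' symbols, 8 were matched through older RefSeq names; snoRNA host genes and others that were not matched were not analysed here. Promoter sequences are from RefSeq, build GRCr8.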

Additional observations from a re-analysis of the deposited data

How the results depend on the processing

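Of the 12 members that rose, Myc, Gar1, Rrp12, Wdr43, Polr1b, Ddx21 and Ddx10 kept their call under all 14 alternatives. Scaling moved the balance most. With upper-quartile factors 1 member and 20 genes of the other lists were lower and the members' median log2 fold change was 0.069; with library totals alone these were 1, 36 and 0.045, and 1730 of all genes were lower. The rises in the lists numbered 48 in the analysis as reported, 42 under upper-quartile scaling and 35 under library totals. Leaving out each library in turn gave 9 to 15 higher and 0 lower members, a median of 0.081 to 0.13, 1193 to 1469 higher and 769 to 948 lower genes, and 38 to 54 higher and 5 to 17 lower list genes. The cause was not tested. Same-numbered libraries did not deviate together (correlations of -0.019 to -0.00050, and 0 of 6 libraries correlated best with their own number). Correlations between differently numbered libraries were as weak (-0.014 to 0.032), so this check cannot tell whether the numbers pair the samples. With the replicate block 11 members were higher and 0 lower, 1372 genes were higher and 964 lower over the table, and 44 and 9 in the lists. Depth was even across libraries and limits the scarcer genes such as Polr1b and Mycn.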
